A study of Homo sapiens with 14 samples.

Results

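The interaction of liproxstatin-1 with TNF in HT-29 cells is the change that liproxstatin-1 made in cells given TNF minus the change it made in cells without TNF. It was read from a 2 by 2 arrangement of 9 of the 14 libraries of the series: 3 control libraries, 2 with liproxstatin-1, 2 with TNF and 2 with TNF and liproxstatin-1. A positive log2 interaction means that liproxstatin-1 moved a gene further up, or less far down, with TNF than without it, and a negative one the reverse. Of 36555 gene rows in the count table, 22179 passed the filter on low counts and were tested.

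TNF binds TNFR1 and switches on NF-kB, which drives inflammatory genes, and in some epithelial cells it also triggers caspase-8 and apoptosis. Liproxstatin-1 is a lipophilic radical-trapping antioxidant that stops lipid peroxidation and so blocks ferroptosis, the iron-dependent form of cell death. ATF4 is the transcription factor of the integrated stress response, which is turned on when amino acids are short, when unfolded protein builds up or when mitochondria fail. Interferon-stimulated genes, which interferon signalling switches on, restrict viruses and raise antigen presentation.

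HT-29 is an established human colorectal carcinoma line, here of wild-type genotype and used as 1 line without a second clone. The controls carried 0.1% DMSO, the liproxstatin-1 cells 20 uM of the compound, the TNF cells recombinant human TNF-a labelled as 100 ug per ml, and the combined group both, with 72 h of treatment. DMSO is named in the labels of the controls only. The study asked why ferrostatin-1 and liproxstatin-1 differ in TNF-driven apoptosis of these cells, and its design speaks of technical replicates, so every p-value below measures only the spread between such samples.

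The 9 libraries held 60328619 to 74780451 counts. Colon epithelial markers summed to 11570 to 14500 CPM (counts scaled by library size and TMM factor), with EPCAM at 510.2, 515 and 482 CPM in the controls but CDX1 at 0.397 CPM or less in every library, and leukocyte markers summed to 826 to 1130 CPM, nearly all of it lysozyme (LYZ). Within groups, the largest gap was that of TNF libraries 1 and 3, with a chi-square per degree of freedom of 226 against 16.1 to 82.5 for other pairs. Transcripts of 8 kb or more took 6.22% of the counts in TNF library 1, 8.27% in TNF library 3 and 8.51% to 9.89% in the other 7. Since TNF alone enters every interaction value, the main lists below are also given without one or the other TNF library. In RNA from a whole dish, fewer cells of a kind and less RNA per cell cannot be told apart.

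No gene passed the interaction test. In edgeR's quasi-likelihood test with Benjamini-Hochberg adjustment, 0 of 22179 genes (0%) were below an adjusted p of 0.05, the smallest adjusted p was 0.0519 and 50 genes lay below 0.1. At an unadjusted p below 0.05 there were 4329 genes (19.5%), 2059 with a higher interaction (9.28% of genes tested) and 2270 with a lower one (10.2%). DESeq2 called 1193 genes, 528 higher and 665 lower, and limma voom with library weights called 207, 171 higher and 36 lower. Without TNF library 1 edgeR called 239 genes, 196 higher and 43 lower, without TNF library 3 it called 6147, and without control library 2 it called 18. A fit with 1 TNF library left out has 1 in that group, which is assumed to vary like the other groups. The median standard error of an interaction was 0.41 on the log2 scale, against 0.28 for liproxstatin-1 without TNF and 0.30 with TNF. The genes below are therefore described by their values and by the 2 liproxstatin-1 effects that make up each interaction, of which some did pass their own test.

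Liproxstatin-1 alone changed 13 genes at an adjusted p below 0.05, 12 higher (0.0541% of genes tested) and 1 lower (0.00451%). Added to TNF it changed 76, 53 higher (0.239%) and 23 lower (0.104%). The 2 sets share no library, and 6 genes were in both, all with the same sign, which is 46.2% of the 13 and 7.89% of the 76. Each gene was put on the TNF side where the size of the liproxstatin-1 effect with TNF was at least 2 times that without it, on the no-TNF side where the reverse held, and on both sides otherwise. Of the 76 genes changed with TNF, 67 lay on the TNF side, 9 on both and 0 on the no-TNF side. Of the 13 changed without TNF, 8 lay on both sides, 5 on the no-TNF side and 0 on the TNF side. Since a call needs a large effect on its own side, these splits follow in part from how the genes were picked and are a description. The calls rested on few libraries: of the 76, 65 were kept without TNF library 1, 76 without TNF library 3, 4 without either combined library and 4 when only the 4 groups were fitted. Of the 13, 2 and 4 were kept without control libraries 1 and 2, 1 and 3 without liproxstatin-1 libraries 1 and 3, and 1 when only the 4 groups were fitted.

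Over all tested genes 41.6% lay on the TNF side, 23% on the no-TNF side, 18.7% on both sides with opposite signs and 16.7% on both with the same sign. Among the 4329 genes with an unadjusted interaction p below 0.05 the TNF side held 2142 (49.5%), the no-TNF side 685 (15.8%) and both sides with opposite signs 1501 (34.7%). Both sides with the same sign held 1. These shares describe genes picked by the interaction p itself, so they are read as a description. Of the 2059 higher genes, 1456 fell with TNF alone and rose with TNF in the presence of liproxstatin-1, by fitted sign. Of the 2270 lower genes, 1292 went the other way, from a fitted rise to a fitted fall. Over all 22179 tested genes, 4953 went from fall to rise and 3797 from rise to fall. A higher interaction excludes a change from rise to fall, and a lower one excludes the reverse. The counts among higher and lower genes therefore follow in part from how the genes were picked and are a description.

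**Figure D1:**
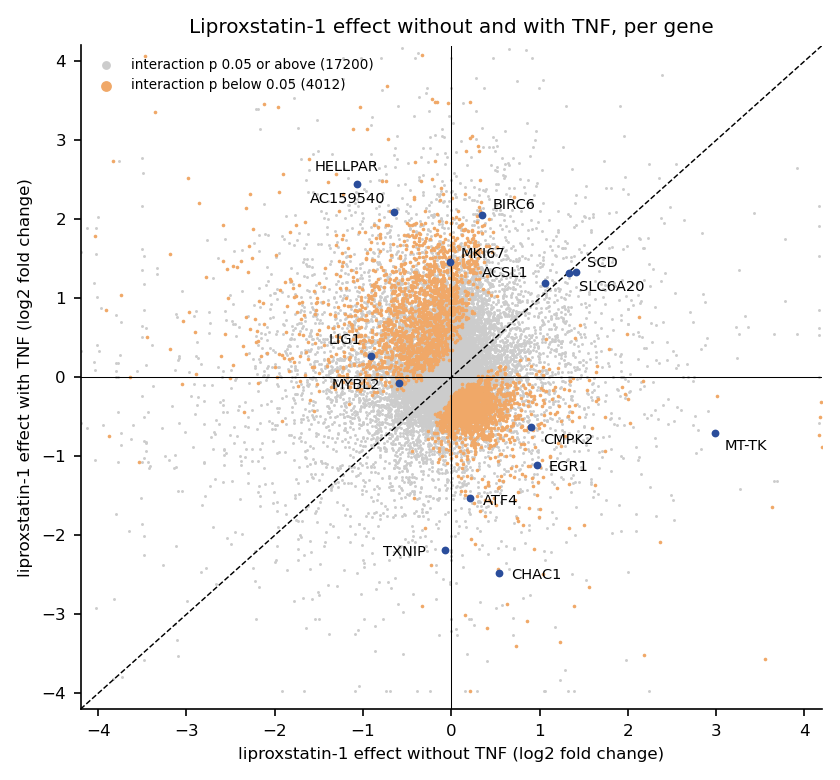
Liproxstatin-1 effect without TNF (x axis, log2) against its effect with TNF (y axis, log2) for 21212 genes, each dot a gene, with 967 genes beyond the axes not drawn. Orange marks the 4012 drawn genes with an unadjusted interaction p below 0.05, the dashed line marks equal effects, and named genes are blue: CHAC1, ATF4 and TXNIP sit low near x = 0, MT-TK far right, and SCD and ACSL1 close to the line.

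Genes of the integrated stress response had lower interactions. Of 51 tested members of the ATF4 list, 36 had a lower interaction at an unadjusted p below 0.05 (70.6%) and 1 a higher one, against 10.2% and 9.28% of all genes. The median interaction of the list was -0.95, against 0.08 over all tested genes. Its median liproxstatin-1 effect was 0.29 without TNF (0.15 without control library 2) and -0.72 with TNF (-0.48 without TNF library 1 and -0.98 without TNF library 3). Of the 37 members below that p, 18 lay on the TNF side, 19 on both sides with opposite signs and 0 on the no-TNF side. With TNF, liproxstatin-1 lowered 6 members at an adjusted p below 0.05 (CHAC1, ATF4, JDP2, SESN2, PSPH and CARS1). The list's median interaction was -0.83 without TNF library 1, -1.15 without TNF library 3 and -0.83 without control library 2, in which the list stood 0.37 lower than the mean of the 3 controls. Calls from fits with 1 TNF library left out are not counted for this list, since that group then holds 1 library. Seen from TNF, 17 members fell with TNF alone (6.44% of all genes did) and 43 of the 51 fell with TNF in the presence of liproxstatin-1 (7.03% of all genes did).

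The letters TGATGNAA, a form of the C/EBP-ATF element that ATF4 dimers bind, were searched on both strands from 250 bases before to 50 after the RefSeq start of each gene. They occurred in 12 of the 41 list members that have such a window (29.3%) and in 1270 of 35116 RefSeq promoters (3.62%). A match is a description of letters and no evidence of binding. The list was written as a set of ATF4 stress response genes, so its higher share is no result of these data. Stretches of 4 members are shown because this list holds CHAC1, the gene of smallest p among lower interactions. Capitals mark the match, all read 5′ to 3′ along the gene's own strand in GRCh38.p14, and those that lie inside the gene's deposited span are kept short. CHAC1 is at chr15:40953252-40953279 (plus strand, the match on the opposite strand), ATF3 at chr1:212565176-212565263 (plus strand), ASNS at chr7:97872459-97872486 (minus strand) and AARS1 at chr16:70289676-70289703 (minus strand, the match on the opposite strand).
CHAC1: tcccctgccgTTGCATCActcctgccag
ATF3: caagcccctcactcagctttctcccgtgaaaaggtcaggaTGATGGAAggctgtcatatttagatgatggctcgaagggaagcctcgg
ASNS: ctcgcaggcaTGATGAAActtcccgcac
AARS1: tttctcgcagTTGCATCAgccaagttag

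CHAC1 (ENSG00000128965, chromosome 15, 40952962 to 40956512 in the deposited table), which degrades glutathione and is a classic ATF4 target, stood at 91.8, 48.9 and 89.4 CPM in control libraries 1 to 3, at 111 and 112 with liproxstatin-1, at 68.2 and 39.6 with TNF and at 9.62 and 9.73 with both. The combined libraries were below all others, the liproxstatin-1 ones above all others, and the TNF libraries overlapped the controls. The interaction was -3.01 (95% interval -3.85 to -2.18, edgeR adjusted p = 0.0519), made of 0.54 without TNF and -2.48 with TNF (edgeR adjusted p = 0.00757). The TNF response was -0.51 alone and -3.52 in the presence of liproxstatin-1 (edgeR adjusted p = 0.209 and 4.02e-05). Without TNF library 1 the interaction was -2.57, and DESeq2 gave an adjusted p of 3.3e-10 on all libraries.

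ATF4 itself (chromosome 22, 39519672 to 39522683) followed the same order. Its levels were 839.9, 636 and 823 CPM in the controls, 858 and 916 with liproxstatin-1, 917 and 552 with TNF and 270.4 and 237 with both. The combined libraries were again below all others, and the 2 TNF libraries lay on either side of the control mean. The interaction was -1.74 (95% interval -2.33 to -1.16, edgeR adjusted p = 0.0754), with 0.21 without TNF and -1.53 with TNF (edgeR adjusted p = 0.0131).

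Other ATF4-list members had the combined libraries lowest too. SESN2, a stress-induced inhibitor of mTORC1 signalling, read 109, 65.1 and 116 CPM in controls, 143 and 139.9 with liproxstatin-1, 79.7 and 52.3 with TNF and 23.6 and 26.9 with both, an interaction of -1.93 (95% interval -2.65 to -1.22, edgeR adjusted p = 0.0859). JDP2, a bZIP repressor, went from 34.2 and 21.1 CPM with TNF to 10.02 and 9.58 with both, and PSPH, the last enzyme of serine synthesis, from 116 and 85.6 to 54.4 and 48.5. In these 3 genes the combined libraries lay below the 7 others. The liproxstatin-1 effect with TNF was -1.50 for JDP2, -1.39 for SESN2 and -0.97 for PSPH (edgeR adjusted p = 0.0131, 0.0415 and 0.0139). Without TNF the same effects were 0.16, 0.55 and -0.02.

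The following members were picked after their values were seen. DDIT3 (CHOP), a pro-apoptotic ATF4 target, read 47.2, 25.1 and 46.5 CPM in controls, 73.1 and 73.1 with liproxstatin-1, 41.3 and 23.8 with TNF and 10.7 and 9.99 with both. Both liproxstatin-1 libraries were the highest and both combined ones the lowest, and the interaction of -2.54 (95% interval -3.43 to -1.65, edgeR adjusted p = 0.0821) was split between 0.89 without TNF and -1.66 with TNF, neither below an edgeR adjusted p of 0.05 (0.222 and 0.0504). Asparagine synthetase (ASNS) had an interaction of -1.50, the alanyl-tRNA synthetase AARS1 -1.17 and ATF3, a stress-induced repressor, -1.70. CARS1, the cysteinyl-tRNA synthetase, fell from 229 and 162 CPM with TNF to 102 and 103 with both (edgeR adjusted p = 0.0392). One exception by value was SLC7A11, the cystine importer, whose interaction of 0.01 (95% interval -1.07 to 1.08, edgeR adjusted p = 1) spanned 0 and whose TNF libraries read 37.4 and 109 CPM.

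TXNIP (chromosome 1, 145992435 to 145996579), which binds thioredoxin and limits glucose uptake, is outside the ATF4 list and lay on the TNF side as well. It stood at 734, 461 and 750.3 CPM in controls, 610.3 and 626 with liproxstatin-1, 649 and 404 with TNF and 125 and 106 with both. The combined libraries were below the 7 others, among which control 2 and TNF 3 were lowest. The interaction was -2.12 (95% interval -2.79 to -1.44, edgeR adjusted p = 0.0754), with -0.07 without TNF and -2.19 with TNF (edgeR adjusted p = 0.00557). MAT2A, which makes S-adenosylmethionine, went from 1734 and 1498 CPM with TNF to 939.5 and 812 with both, a log2 change of -0.88 (edgeR adjusted p = 0.0355).

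**Figure D2:**
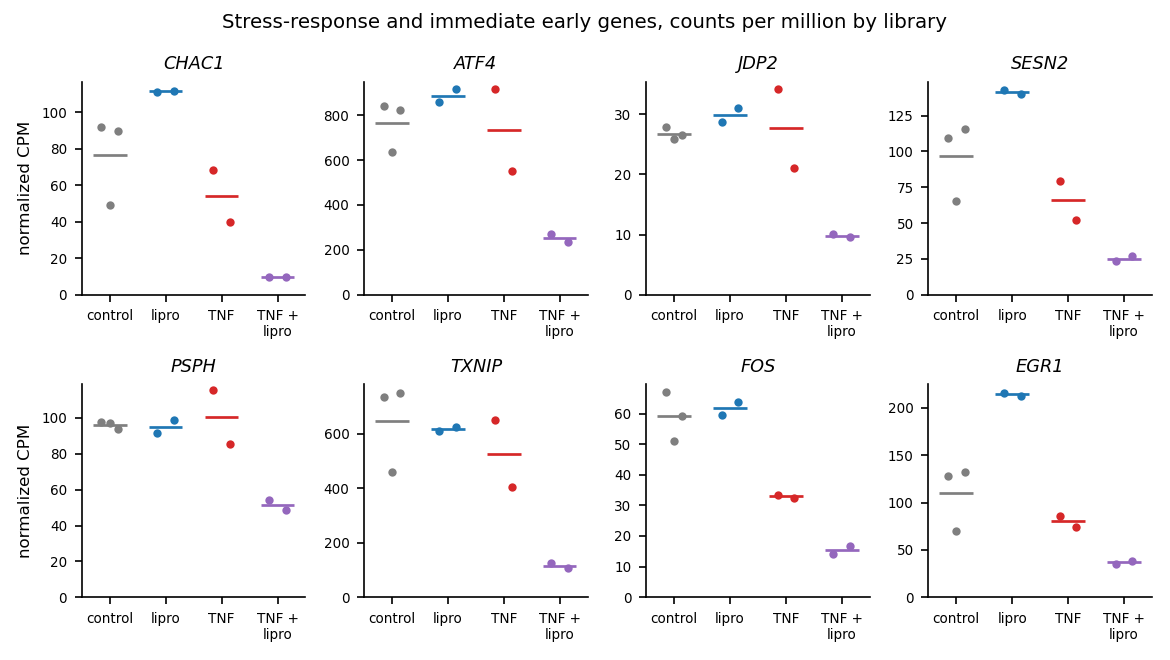
Normalized CPM (y axis) of CHAC1, ATF4, JDP2, SESN2, PSPH, TXNIP, FOS and EGR1 in each of the 9 libraries, by group (x axis; lipro is liproxstatin-1). Dots are libraries and bars group means; in each panel the 2 libraries with TNF and liproxstatin-1 are the lowest.

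Immediate early genes, which report growth factor and MAP kinase signalling, were lower in the interaction too, with a mixture of sides. Of 41 tested members 22 were lower (53.7%) and 0 higher at an unadjusted p below 0.05, against 10.2% and 9.28% of all genes. The median interaction was -0.66, made of 0.21 without TNF (0.08 without control library 2) and -0.47 with TNF. Of these 22, 14 lay on both sides with opposite signs, 5 on the TNF side and 3 on the no-TNF side. The list's median interaction was -0.61 without TNF library 1, -0.69 without TNF library 3 and -0.48 without control library 2. With TNF, liproxstatin-1 lowered 2 members at an adjusted p below 0.05, FOS and JUN.

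FOS, an AP-1 subunit, read 67.01, 51.2 and 59.3 CPM in controls, 59.6 and 63.9 with liproxstatin-1, 33.3 and 32.5 with TNF and 14.2 and 16.6 with both. TNF libraries were below all controls and the combined ones below the TNF libraries, and liproxstatin-1 without TNF overlapped the controls. The interaction was -1.16 (95% interval -1.57 to -0.74, edgeR adjusted p = 0.0859) and the effect with TNF -1.10 (edgeR adjusted p = 0.0131). JUN, its partner, fell when liproxstatin-1 was added to TNF, with an effect of -0.67 (edgeR adjusted p = 0.026). EGR1, a zinc finger factor, differed in side: it read 128, 69.5 and 132 CPM in controls, 216 and 213 with liproxstatin-1, 85.5 and 74.6 with TNF and 35.6 and 38.7 with both. Its liproxstatin-1 libraries were the highest of the 9 and its combined ones the lowest, and the interaction of -2.07 (95% interval -2.75 to -1.40, edgeR adjusted p = 0.0754) came from 0.97 and -1.11, neither below an edgeR adjusted p of 0.05 (0.142 and 0.0616). DUSP6, the ERK phosphatase, had 0.39 without TNF, -0.57 with TNF and an interaction of -0.97 (95% interval -1.29 to -0.65, edgeR adjusted p = 0.0754).

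NF-kB targets rose with TNF in both settings. TNF alone raised 35 of 52 tested members (8.24% of all genes rose) and TNF in the presence of liproxstatin-1 raised 25 (7.57% of all genes rose) and lowered 1. The list's median TNF effect was 1.49 without liproxstatin-1 and 1.26 with it, and its median interaction -0.44. At an unadjusted p below 0.05, 21 of 52 tested members were lower (40.4%) and 2 higher (3.85%), against 10.2% and 9.28% of all genes. Of these members, 12 lay on the TNF side, 7 on both sides with opposite signs and 4 on the no-TNF side. Median liproxstatin-1 effects were 0.07 without TNF and -0.36 with TNF (-0.23 without TNF library 1), and the interaction was -0.31 without TNF library 1 and -0.47 without TNF library 3. After adjustment edgeR called 0 members in the interaction, and DESeq2 called 7, all lower. Of 14905 genes with an adjusted p in DESeq2, 665 were called lower and 528 higher.

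ICAM1, the leukocyte adhesion ligand, stood at 26.4, 24.9 and 30.4 CPM in controls, 33.3 and 30.4 with liproxstatin-1, 277 and 237 with TNF and 165 and 181 with both. All libraries with TNF were above all those without it, and the combined libraries lay between. The TNF response was 3.24 alone and 2.44 with liproxstatin-1, an interaction of -0.80 (95% interval -1.14 to -0.45, edgeR adjusted p = 0.103). CXCL8, the neutrophil chemokine, went from 5.31, 4.57 and 5.41 CPM to 101 and 97.9 with TNF and to 75.3 and 70.2 with both, an interaction of -0.62 (95% interval -1.04 to -0.19, edgeR adjusted p = 0.16). TNFAIP3 (A20), which shuts NF-kB off, had an interaction of -0.04 (95% interval -0.43 to 0.34, edgeR adjusted p = 0.922), an interval on both sides of 0. BIRC3, an inhibitor of apoptosis, read 43.1 and 243 CPM in the TNF libraries, so that its interval of -0.97 to 2.07 around 0.55 is wide.

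TSC22D1, a leucine zipper regulator, and SGPP2, a sphingosine-1-phosphate phosphatase, rose with TNF and fell when liproxstatin-1 was added to it. TSC22D1 read 237, 215 and 269 CPM in controls, 248 and 251 with liproxstatin-1, 476 and 410.3 with TNF and 249.6 and 250 with both. Its TNF response was 0.88 alone and 0.00 with liproxstatin-1, and the liproxstatin-1 effect with TNF -0.83 (edgeR adjusted p = 0.0139). SGPP2 went from 84.1, 90.2 and 85.6 CPM in controls to 295 and 262 with TNF and 185 and 189 with both, a liproxstatin-1 effect of -0.57 (edgeR adjusted p = 0.0267) on a TNF response of 1.68. With both agents TSC22D1 lay among the libraries without TNF and SGPP2 above them. AJUBA, a LIM scaffold of junctions, also fell when liproxstatin-1 was added to TNF, with an effect of -1.09 (edgeR adjusted p = 0.0252).

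Cytosolic ribosomal protein genes had lower interactions from the TNF side alone. Of 63 tested members 25 were lower (39.7%) and 0 higher at an unadjusted p below 0.05, against 10.2% and 9.28% of all genes. All 25 lay on the TNF side, as did 49.5% of all genes below that p. Median liproxstatin-1 effects were 0.01 without TNF and -0.41 with TNF. The list stood 0.02 above the control mean in TNF library 1 and 0.39 below it in TNF library 3, against 0.39 and 0.74 below in the combined libraries. The median interaction of -0.43 became -0.20 without TNF library 1 and -0.60 without TNF library 3.

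Mitotic genes had higher interactions. Of 50 tested members of the G2/M and mitosis list 31 were higher (62%) and 0 lower at an unadjusted p below 0.05. Of all genes 9.28% were higher and 10.2% lower. The 31 members split into 19 on the TNF side, 6 on the no-TNF side and 6 on both with opposite signs. The median interaction was 0.78, with liproxstatin-1 effects of -0.36 without TNF and 0.34 with TNF. By library the list stood at -0.26 and 0.15 with TNF and at 0.43 and 0.27 with both, relative to the control mean in log2. The median interaction was 0.56 without TNF library 1 and 0.95 without TNF library 3. The effect with TNF was 0.11 without TNF library 1 and 0.51 without TNF library 3.

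MKI67 (ENSG00000148773, chromosome 10, 128096659 to 128126423), the Ki-67 antigen of cycling cells and the gene of smallest p, stood at 376, 311 and 334 CPM in controls, 348 and 326 with liproxstatin-1, 163 and 184 with TNF and 469 and 482 with both. Both TNF libraries were below and both combined libraries above the 5 libraries without TNF. The interaction was 1.47 (95% interval 1.07 to 1.87, edgeR adjusted p = 0.0519), with -0.01 without TNF and 1.46 with TNF (edgeR adjusted p = 0.0016), and the TNF response was -0.97 alone and 0.50 with liproxstatin-1 (edgeR adjusted p = 0.000394 and 0.0289). Its longest transcript has 12678 bases, and the interaction was 1.01 once the trend with transcript length in each library was removed. It was 1.38 without TNF library 1. TOP2A, topoisomerase II alpha, chosen after its values were seen, read 315, 403 and 274 CPM in controls, 224 and 232 with liproxstatin-1, 44.6 and 212 with TNF and 458 and 439 with both. Its TNF libraries lay far apart, both below the 7 others, and the interaction was 2.34 (95% interval 0.94 to 3.74, edgeR adjusted p = 0.136), from -0.54 without TNF and 1.81 with TNF.

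Long transcripts had higher interactions, from the TNF side. The median interaction was 0.38 for the 1335 genes of 8 kb or more and -0.01 for those of 2 to 4 kb. It was not a steady rise with length, since genes under 1 kb had 0.21, from -0.12 without TNF and 0.06 with TNF. In the genes of 8 kb or more liproxstatin-1 had a median of 0.05 without TNF and 0.38 with TNF. Their median level stood 0.62 below the control mean in TNF library 1, 0.13 below it in TNF library 3 and 0.03 and 0.11 above it in the combined libraries. Of the 53 genes that rose with liproxstatin-1 in TNF-treated cells, 26 of 52 with a known length reached 8 kb (50%), against 6.14% of tested genes and 0 of the 23 that fell. Of the 76 calls in both directions, 70 were kept when the length trend was removed, but 4 when only the 4 groups were fitted.

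**Figure D3:**
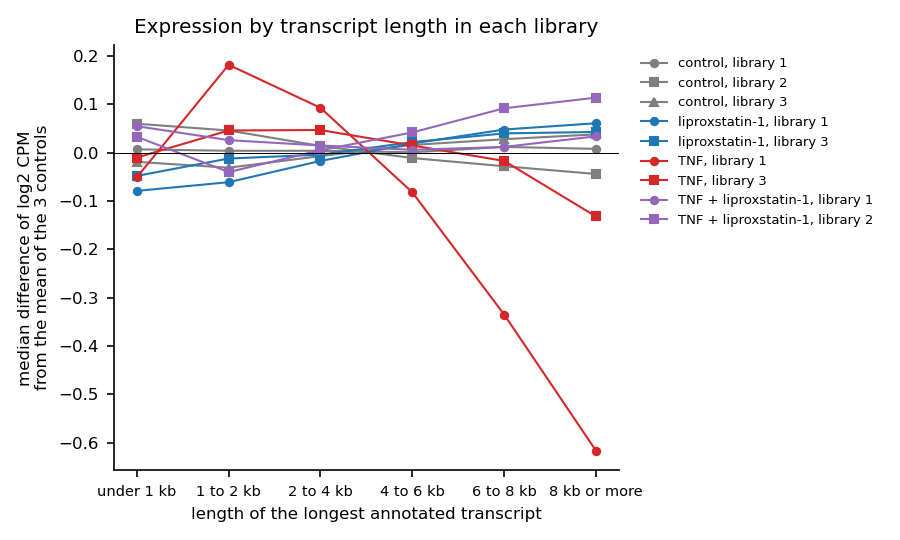
Median difference of log2 CPM from the mean of the 3 controls (y axis) by length of the longest transcript (x axis, 6 bins) for each of the 9 libraries, each line a library. TNF library 1 falls to -0.617 for transcripts of 8 kb or more, TNF library 3 to -0.132, and the other 7 stay between -0.044 and 0.114 there.

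Named genes of this kind included BIRC6, a very large inhibitor of apoptosis that also acts as a ubiquitin ligase, at 177, 126 and 158 CPM in controls, 203 and 188 with liproxstatin-1, 22.5 and 66.7 with TNF and 185 and 186 with both. Its TNF libraries were below the 7 others, with a liproxstatin-1 effect of 2.06 with TNF (edgeR adjusted p = 0.0443). Its interaction of 1.71 was 1.13 without TNF library 1 and 2.70 without TNF library 3. FAT1, a giant cadherin, rose with liproxstatin-1 in TNF-treated cells by 1.09 (edgeR adjusted p = 0.015). Its interaction of 0.94 was 0.44 with the length trend removed. ASH1L, a histone methyltransferase, rose by 1.36 (edgeR adjusted p = 0.0131), and its interaction of 1.15 was 0.76 with the length trend removed. The transcript of coagulation factor F5 is shorter, at 7039 bases, and its interaction of 0.89 was 0.67 with the length trend removed. F5 was lowered by TNF from 165, 162 and 161 CPM to 26.8 and 31.1, and stood at 60.2 and 51.9 with both. Liproxstatin-1 with TNF thus raised it by 0.95 (edgeR adjusted p = 0.0139) to a level still below every library without TNF.

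The cholesterol synthesis list had 3 of 29 tested members with a higher interaction at an unadjusted p below 0.05 (10.3%), near the 9.28% of all genes. HMGCS1, an early enzyme of cholesterol synthesis, read 48.7, 61.4 and 50.7 CPM in controls, 60.9 and 66.4 with liproxstatin-1, 39.9 and 76.2 with TNF and 151 and 149 with both. The combined libraries were above the 7 others, with an effect of 1.37 with TNF (edgeR adjusted p = 0.0366) and an interaction of 1.12 (95% interval 0.44 to 1.80, edgeR adjusted p = 0.139), which was 0.725 without TNF library 1 and 1.66 without TNF library 3. In TNF-treated cells liproxstatin-1 also raised ABCA1, the cholesterol exporter, by 1.73, ACACA, the first enzyme of fatty acid synthesis, by 1.04, and LRP8, a lipoprotein receptor, by 0.91 (edgeR adjusted p = 0.042, 0.0251 and 0.0131). ABCA1 (10494 bases), ACACA (9961 bases) and LRP8 (7648 bases) are long transcripts too. With the length trend removed their interactions of 1.46, 0.59 and 0.75 were 1.16, 0.26 and 0.50. In the same order they were 0.98, 0.30 and 0.55 without TNF library 1 and 2.18, 0.95 and 0.99 without TNF library 3. ADH6, an alcohol dehydrogenase, rose by 3.06 (edgeR adjusted p = 0.0331), but near the floor. It went from 0.053 and 0.066 CPM with TNF to 0.625 and 0.395 with both. The controls stood at 3.48, 5.23 and 3.00 CPM, so the combined libraries stayed below every library without TNF.

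Mitochondrial transcripts went both ways. MT-CO2, a cytochrome c oxidase subunit, read 3342, 3456 and 3496 CPM in controls, 3833 and 3338 with liproxstatin-1, 2317 and 2789 with TNF and 4436 and 4881 with both, and rose when liproxstatin-1 was added to TNF, by 0.87 (edgeR adjusted p = 0.00643). MT-CYB, of the cytochrome bc1 complex, read 4876 and 4360 CPM with TNF and 2689 and 2667 with both, and fell, with an effect of -0.79 (edgeR adjusted p = 0.00757). Both are processed from the same long precursor of the mitochondrial genome. The noncoding rows AC159540, HELLPAR and LINC00342 had interactions of 2.75, 3.52 and 2.81 with edgeR adjusted p of 0.0519, 0.0754 and 0.0836. That of HELLPAR was 1.87 with the length trend removed. AC159540 stood at 1.07 and 1.20 CPM with TNF and 5.09 and 4.66 with both, against 3.74, 4.12 and 4.22 in controls.

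Interferon-stimulated genes had positive liproxstatin-1 effects without TNF and effects of either sign with TNF, of which none passed the adjusted test. Of 58 tested members, 29 had a lower interaction (50%) and 0 a higher one at an unadjusted p below 0.05, against 10.2% and 9.28% of all genes. The 29 members split into 11 on the no-TNF side, 16 on both sides with opposite signs and 2 on the TNF side. The list's median liproxstatin-1 effect was 0.70 without TNF and -0.13 with TNF, its interaction -0.67. At an unadjusted p below 0.05, liproxstatin-1 without TNF had 38 members higher and 0 lower, against 1152 higher and 1506 lower among all 22179 genes. With TNF it had 8 higher and 13 lower, against 2473 and 2646 among all genes. DESeq2 called 21 members in the interaction, all lower. Over all genes it called 665 lower and 528 higher of the 14905 that it gave an adjusted p. TNF alone raised 46 members, with a list median of 1.36, and TNF in the presence of liproxstatin-1 raised 24, with 0.70 (8.24% and 7.57% of all genes rose). By library the list stood 1.21 and 1.36 above the control mean with TNF and 1.39 and 1.40 above it in the combined ones. The median interaction was -0.71 without TNF library 1, -0.52 without TNF library 3 and -0.50 without control library 2, where the list stood 0.33 below the control mean.

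The interferon-stimulated response element, searched as 2 copies of GAAA with any 2 bases between them on both strands of the same windows, occurred in 29 of 44 list members with a window (65.9%) and in 1255 of 35116 promoters (3.57%). This list was likewise written as a set of interferon-stimulated genes, so its higher share is no result of these data. Stretches of 4 members are shown as examples of what members of the list share in sequence. Capitals mark one match each, read as above in GRCh38.p14, and nothing is drawn from them about binding. IFI6 is at chr1:27672258-27672347 (minus strand), OAS3 at chr12:112938291-112938380 (plus strand), IFIT1 at chr10:89392497-89392526 (plus strand, the match on the opposite strand) and ISG15 at chr1:1013380-1013409 (plus strand).
IFI6: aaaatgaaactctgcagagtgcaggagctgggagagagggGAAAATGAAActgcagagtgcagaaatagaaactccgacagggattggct
OAS3: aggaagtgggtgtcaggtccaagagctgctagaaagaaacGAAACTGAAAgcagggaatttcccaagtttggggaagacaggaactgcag
IFIT1: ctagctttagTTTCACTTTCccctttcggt
ISG15: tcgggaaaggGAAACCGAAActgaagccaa

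The interferon and antigen presentation genes named here were picked after their values were seen. IFIT1, which binds viral RNA, read 68.8, 55.4 and 76.02 CPM in controls, 132 and 134 with liproxstatin-1, 228 and 279.5 with TNF and 274 and 263 with both. The liproxstatin-1 libraries were above all controls, while the combined libraries lay between the 2 TNF libraries. The liproxstatin-1 effect was 1.00 without TNF (edgeR adjusted p = 0.0603) and 0.08 with TNF, an interaction of -0.92 (95% interval -1.46 to -0.37, edgeR adjusted p = 0.136). OAS3, a sensor of double-stranded RNA, had effects of 0.70 and -0.17 and an interaction of -0.87. CMPK2, a mitochondrial nucleotide kinase, lay on both sides: 14.4, 14.3 and 17.1 CPM in controls, 26.9 and 30.1 with liproxstatin-1, 149.8 and 91.6 with TNF and 79.9 and 76.2 with both. Its combined libraries were below both TNF libraries, and the interaction was -1.53 (95% interval -2.15 to -0.91, edgeR adjusted p = 0.0985), from 0.90 and -0.63. OAS1 showed the same order, 196, 152 and 219.5 CPM in controls, 327 and 322 with liproxstatin-1, 784 and 557 with TNF and 489 and 470.3 with both, with an interaction of -1.26 (95% interval -1.80 to -0.73, edgeR adjusted p = 0.103).

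MX1, a GTPase that blocks viral nucleocapsids, had liproxstatin-1 effects of 0.90 and -0.23, ISG15, a ubiquitin-like modifier, 0.80 and -0.52, and IFI6, 0.98 and -0.61, each pair without and with TNF. In IFI6 TNF library 1 read 904 CPM and TNF library 3 492, and the combined libraries 483 and 432. Antigen presentation followed in part: of 21 tested MHC class I genes, 15 were lower (71.4%) and 0 higher at an unadjusted p below 0.05. Of all genes 10.2% were lower and 9.28% higher. The MHC class I list had a median interaction of -0.53 that was -0.26 without TNF library 1 and -0.71 without TNF library 3. TAP1, the peptide transporter, read 65.2, 60.8 and 74.5 CPM in controls, 100.2 and 94.9 with liproxstatin-1, 490.2 and 325 with TNF and 297 and 302 with both. Liproxstatin-1 libraries were above the controls and combined libraries below both TNF libraries.

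DNA replication genes had higher interactions, more of them from the no-TNF side than from the TNF side. Of 48 tested members 32 had a higher interaction (66.7%) and 0 a lower one at an unadjusted p below 0.05, against 9.28% and 10.2% of all genes. The 32 members split into 12 on the no-TNF side, 15 on both sides with opposite signs and 5 on the TNF side. Liproxstatin-1 had a median of -0.39 without TNF and of 0.16 with TNF. Without TNF it had 31 members lower and 0 higher at an unadjusted p below 0.05, against 1506 lower and 1152 higher among all 22179 genes. TNF alone raised 8 members (8.24% of all genes rose) and TNF in the presence of liproxstatin-1 raised 32 (7.57% of all genes rose). The list stood 0.43 and 0.35 below the control mean in the liproxstatin-1 libraries and between 0.18 and 0.32 above it in the 4 libraries with TNF. The median interaction was 0.61, and 0.51, 0.58 and 0.46 without TNF library 1, TNF library 3 and control library 2.

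MYBL2, the B-Myb factor that drives late cell cycle genes, was the 1 gene called lower with liproxstatin-1 alone at an adjusted p below 0.05. MYBL2 was not called when only the 4 groups were fitted. It read 228, 245 and 230.3 CPM in controls, 157 and 154 with liproxstatin-1, 233 and 219 with TNF and 212 and 219 with both. Only the liproxstatin-1 libraries stood apart, below the 7 others. Its effect was -0.60 without TNF (edgeR adjusted p = 0.023) and -0.07 with TNF, and the interaction 0.53 (95% interval 0.27 to 0.78, edgeR adjusted p = 0.121). WDR76, a chromatin protein of S phase, read 25.8, 30.2 and 24.5 CPM in controls, 14.8 and 17.1 with liproxstatin-1, 22.5 and 26.6 with TNF and 31.5 and 31.1 with both, an interaction of 1.10 (95% interval 0.69 to 1.51, edgeR adjusted p = 0.0859). The liproxstatin-1 libraries were the lowest and the combined ones the highest of the 9. UHRF1, which guides maintenance of DNA methylation and was chosen after its values were seen, had the same order, with -0.56 without TNF, 0.26 with TNF and an interaction of 0.82 (95% interval 0.47 to 1.17, edgeR adjusted p = 0.103).

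**Figure D4:**
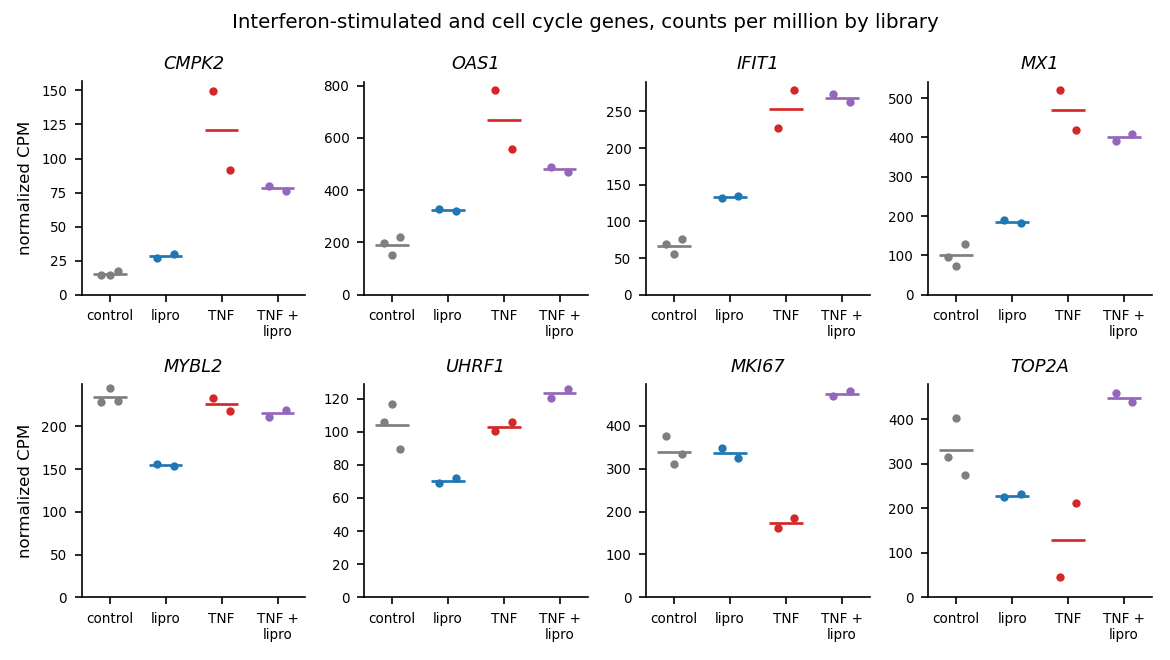
Normalized CPM (y axis) of CMPK2, OAS1, IFIT1, MX1, MYBL2, UHRF1, MKI67 and TOP2A in each of the 9 libraries, by group (x axis; lipro is liproxstatin-1), with dots for libraries and bars for group means. In the 4 interferon genes liproxstatin-1 alone is above the controls; MYBL2 and UHRF1 are lowest with liproxstatin-1 alone, and MKI67 is lowest with TNF alone.

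A short RNA also lay on the no-TNF side. MT-TK, the mitochondrial lysine tRNA (positions 8295 to 8364 of the mitochondrial genome), read 13.4, 5.96 and 18.4 CPM in controls, 108 and 91.6 with liproxstatin-1, 10.5 and 5.84 with TNF and 5.89 and 4.14 with both. Both liproxstatin-1 libraries were above all others. The liproxstatin-1 effect was 2.98 against the controls (edgeR adjusted p = 0.0193) and -0.71 with TNF (adjusted p = 0.328). The interaction was -3.69 (95% interval -4.92 to -2.46, edgeR adjusted p = 0.0754). The libraries were made from poly(A) RNA and MT-CO2 ends at position 8269, so reads of an unprocessed precursor and of the tRNA cannot be told apart.

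Some genes rose with liproxstatin-1 both without and with TNF. SCD, the desaturase that makes oleic and palmitoleic acid, read 341, 349.9 and 359 CPM in controls, 967 and 900.2 with liproxstatin-1, 471 and 450.4 with TNF and 1149 and 1181 with both. Each liproxstatin-1 group was above its own reference without overlap, by 1.42 and 1.34 (edgeR adjusted p = 4.29e-06 and 3.27e-05), and the difference of the 2 effects lay between -0.31 and 0.16. ACSL1, a long-chain acyl-CoA synthetase, read 20.03, 21.6 and 20.8 CPM in controls, 44.6 and 42.04 with liproxstatin-1, 35.8 and 40.1 with TNF and 87.9 and 85.8 with both. It rose by 1.06 and 1.19, with an interaction of 0.14 (95% interval -0.18 to 0.45, edgeR adjusted p = 0.623).

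MUC13, a membrane mucin, rose by 0.73 without TNF and 0.92 with TNF (edgeR adjusted p = 0.0193 and 0.00557), NCR3LG1, the ligand of the NKp30 receptor, by 1.12 and 1.36, and SLC6A20, a proline transporter, by 1.33 and 1.33. With SCD and ACSL1 these are among the 6 genes called in both settings. Their 95% interaction intervals were -0.11 to 0.49 for MUC13, -0.29 to 0.76 for NCR3LG1 and -0.61 to 0.60 for SLC6A20. Each spans 0 but leaves room for a difference as large as its bounds. Fatty acid synthesis genes as a list had median effects of 0.40 without TNF and 0.32 with TNF and a median interaction of 0.02. At an unadjusted p below 0.05, 5 of 33 tested members were higher and 5 lower (15.2% each), against 9.28% and 10.2% of all genes. Cholesterol synthesis genes had median effects of 0.23 and 0.45, with 3 of 29 higher and 1 lower. FASN, the fatty acid synthase, had 0.52 without TNF (adjusted p = 0.179) and 1.03 with TNF (adjusted p = 0.0158), and an interaction of 0.51 (95% interval 0.08 to 0.94, edgeR adjusted p = 0.195) that was 0.19 with the trend with transcript length removed.

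**Figure D5:**
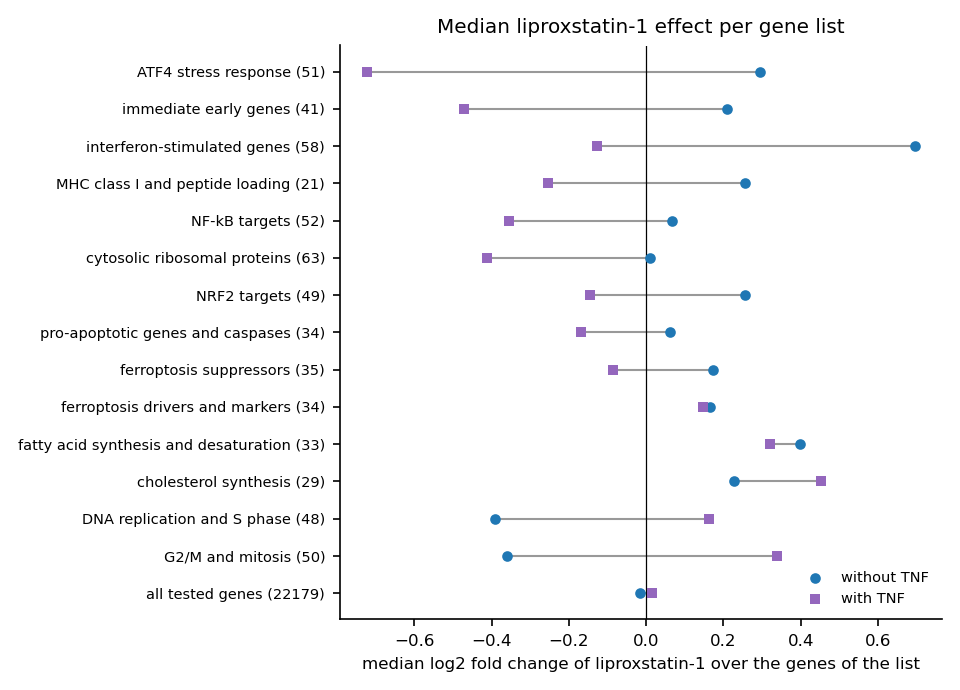
Median log2 effect of liproxstatin-1 (x axis) over the tested members of 14 gene lists and over all tested genes (y axis), circles without TNF and squares with TNF. The ATF4 list spans 0.294 to -0.722 and the mitosis list -0.361 to 0.339, while fatty acid synthesis stays at 0.399 and 0.321 and all tested genes at -0.017 and 0.015.

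Ferroptosis is the process that the compound blocks. Its suppressors had a median interaction of -0.22 (-0.14 without TNF library 1) with 7 of 35 tested lower (20%) and 3 higher (8.57%) at an unadjusted p below 0.05. Its drivers and markers had -0.04 with 5 of 34 lower (14.7%) and 1 higher (2.94%). Over all tested genes the median was 0.08, with 10.2% lower and 9.28% higher. In both lists the share that was lower was above that of all genes, and the share that was higher was not. GPX4, the lipid peroxide reductase, read 225, 225 and 217 CPM in controls, 238 and 231 with liproxstatin-1, 367 and 256 with TNF and 258 and 226 with both. TNF library 1 stood alone at the top, and the interaction of -0.44 (95% interval -0.85 to -0.03, edgeR adjusted p = 0.226) was -0.16 without that library and -0.68 without TNF library 3. AIFM2 (FSP1), the ubiquinone reductase that acts beside GPX4, had 0.32 without TNF, -0.49 with TNF and an interaction of -0.81 (95% interval -1.26 to -0.36, edgeR adjusted p = 0.128). ACSL4, which loads polyunsaturated fatty acids into lipids, and the transferrin receptor TFRC had TNF libraries far apart (17.3 and 58.8 and 59.5 and 232 CPM), with intervals of -0.28 to 1.88 and -0.10 to 2.29. Without TNF library 1 their interactions were 0.17 and 0.42, and without TNF library 3 they were 1.94 and 2.39. PTGS2, a common marker of ferroptosis, lay on the no-TNF side with 0.88 and -0.21, an interaction of -1.09 (95% interval -1.94 to -0.25, edgeR adjusted p = 0.179).

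NRF2 targets had 12 of 49 tested members lower (24.5%) and 0 higher at an unadjusted p below 0.05, against 10.2% and 9.28% of all genes. Their median effects were 0.26 without TNF and -0.15 with TNF. The latter was -0.04 without TNF library 1 and -0.24 without TNF library 3. NQO1, a quinone reductase, had an interaction of -0.80 (95% interval -1.19 to -0.41, edgeR adjusted p = 0.121), GCLM, of glutathione synthesis, -0.38 (95% interval -0.76 to 0.01, edgeR adjusted p = 0.269), and HMOX1, heme oxygenase, -0.69 (95% interval -1.49 to 0.12, edgeR adjusted p = 0.324). Pro-apoptotic genes had 10 of 34 tested members lower (29.4%) and 1 higher (2.94%), with a median interaction of -0.26. That median was -0.16 without TNF library 1 and -0.39 without TNF library 3. Anti-apoptotic genes had 3 of 20 lower (15%), nearer the 10.2% of all genes, and 1 higher (5%), with a median interaction of -0.03. CASP8, the initiator caspase of TNF-driven apoptosis, read 62, 56.9 and 65.8 CPM in controls, 70.6 and 72.05 with liproxstatin-1, 79.9 and 68.7 with TNF and 59.97 and 59.9 with both. Its combined libraries lay below both TNF libraries and among the controls, an interaction of -0.52 (95% interval -0.83 to -0.21, edgeR adjusted p = 0.136). PMAIP1 (NOXA), chosen after its values were seen, had -1.32 (edgeR adjusted p = 0.0821). CFLAR, the caspase-8 inhibitor, had -0.10 (95% interval -0.35 to 0.16, edgeR adjusted p = 0.678), but -0.63 with the trend with transcript length removed (its longest transcript has 14672 bases).

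Other genes of the set given whatever their result were CYP1A1, a target of the aryl hydrocarbon receptor, and 2 keratins. CYP1A1 had an interaction of 0.27 (95% interval -0.38 to 0.91, edgeR adjusted p = 0.644). KRT7 read 84.4, 81.4 and 80.8 CPM in controls, 13.1 and 28.8 with liproxstatin-1, 88.4 and 106 with TNF and 31.02 and 13.5 with both, and KRT81 48.1, 47.6 and 48.4, 1.05 and 14, 43.7 and 50.4 and 13.6 and 1.85. Both were lower in all 4 liproxstatin-1 libraries, by amounts that differed between libraries of one group, and their interaction intervals were -2.31 to 1.99 and -3.61 to 3.71.

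Ferrostatin-1, another radical-trapping ferroptosis inhibitor, was given at the same 20 uM and for the same 72 h, and its own interaction with TNF shares the control and TNF libraries with that of liproxstatin-1, so the 2 are given side by side. The ferrostatin-1 interaction was called for 1 gene, WDR76 (1.62, edgeR adjusted p = 0.0303), against 1.10 for liproxstatin-1, a difference of -0.52, 95% interval -0.93 to -0.11. The difference between the 2 interactions, the 1 pair compared here and one in which the shared libraries cancel, passed for 0 genes in edgeR's test, with 879 genes (3.96%) at an unadjusted p below 0.05 and a smallest adjusted p of 0.329. Medians of the lists were as follows with each compound: the ATF4 list -0.95 with liproxstatin-1 and -0.70 with ferrostatin-1, immediate early genes -0.66 and -0.55, ribosomal proteins -0.43 and -0.38, DNA replication 0.61 and 0.85, and G2/M and mitosis 0.78 and 0.84. Interferon-stimulated genes had -0.67 and -0.19. Members whose 2 interactions differed at an unadjusted p below 0.05 were 4 of 51 in the ATF4 list, 5 of 41 immediate early genes, 0 of 63 ribosomal proteins, 1 of 48 replication genes, 1 of 50 mitosis genes and 6 of 58 interferon-stimulated genes. The 6 genes compared next were chosen after their values were seen, for a difference between the compounds, and are a description. CHAC1 had -3.01 with liproxstatin-1 and -2.16 with ferrostatin-1, a difference of -0.85, 95% interval -1.69 to -0.02. SCD had -0.08 and -0.68 (0.60, 95% interval 0.36 to 0.83), ICAM1 -0.80 and -0.10 (-0.70, 95% interval -1.04 to -0.35), CXCL8 -0.62 and 0.30 (-0.91, 95% interval -1.35 to -0.48), SLC6A20 0.00 and -1.51 (1.51, 95% interval 0.89 to 2.13) and IFIT1 -0.92 and -0.22 (-0.69, 95% interval -1.24 to -0.15). None of these differences passed the adjustment over all genes.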

How the data were processed

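Libraries were dUTP stranded, made from poly(A) RNA and read as paired ends on a NovaSeq, per the labels' protocols. Values are the raw counts per gene that the authors deposited, and 14 FPKM columns beside them were not used. The submitters' processing notes name cutadapt 1.9, HISAT2 2.0.4 and StringTie 1.3.4d. Not given in the sources used here are the build, the annotation, the counter and whether it used strand, which leaves overlapping or antisense genes uncertain. Column numbers 1 and 3 of the liproxstatin-1 and TNF groups do not match the titles, so these columns were matched by group only. The design states 3 replicates per group, and 4 of the 6 groups hold 2.

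Counts were scaled by TMM and filtered with filterByExpr in edgeR 4.0.16 (R 4.3.3), and all 14 libraries in 6 groups were fitted together. Contrasts were tested with the quasi-likelihood test and Benjamini-Hochberg adjustment over 22179 genes at 0.05. Alternatives used DESeq2 1.42.0 and limma 3.58.1. Intervals are 95% t intervals of the log2 fold change. The lists and genes were chosen with earlier results of these data known. The rule for named genes took the 6 smallest p-values in each direction with a mean count of at least 50, called members of lists and a fixed set. Transcript lengths are those of the longest transcript in GENCODE release 29 (21751 tested genes), and promoter windows are from RefSeq, GRCh38.p14. Same-numbered libraries had correlations of deviations between -0.096 and 0.019 over 10 pairs, so the numbers do not pair them. The model was tested on simulated counts. Some genes that the rule names are not reported here.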

Additional observations from a re-analysis of the deposited data

How the results depend on the processing

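The interaction was called for 0 genes with relative log expression scaling, with only the 4 groups, with the length trend removed (chosen after seeing the data) and at a change of at least 2-fold, for 2 without a filter on low counts, 3 with a stricter one, 1193 by DESeq2 and 207 by limma voom, and for 0 to 6147 when single libraries were left out (239 without TNF library 1, 6147 without TNF library 3, 18 without control library 2). Where a group was left with 1 library, that library is assumed to vary like the other groups. Of the genes called, the TNF side held 2 without a filter, 3 with the stricter one, 571 by DESeq2, 185 by voom and 0 to 5017 with a library left out, the no-TNF side 133 by DESeq2, 2 by voom and 0 to 164, and both sides 489, 20 and 0 to 966.

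Liproxstatin-1 without TNF was called for 25 genes with the stricter filter, 495 by DESeq2, 1463 by voom, 2 with only the 4 groups, 29 with the length trend removed and 1 to 164 with a library left out. With TNF it was called for 117, 2440, 123, 6, 246 and 4 to 6797 (356 without TNF library 1). Of the 76 genes, 72 were kept by DESeq2, 25 by voom, 4 with only the 4 groups and 4 without either combined library. Of the 13, 13 were kept by DESeq2 and voom, and 1 with only the 4 groups. TNF without liproxstatin-1 was called for 1514 genes by voom, 1345 with only the 4 groups, 1245 at 2-fold or more and 1766 to 7380 with a library left out, and TNF with liproxstatin-1 for 6848, 1647, 1270 and 1328 to 5473. The cause was not tested.

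With the library number as a replicate block, the interaction was called for 0 genes, liproxstatin-1 without TNF for 3, liproxstatin-1 with TNF for 19 and TNF with liproxstatin-1 for 1781. Since the numbers do not pair the libraries, these fits are given as alternatives only.

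Changes of sign were followed only in the genes that the rule names, not over all tested genes. Among them, interactions of 6 genes changed sign with a library left out: BIRC3 (-0.213 to 2.286), TNFAIP3 (-0.218 to 0.15), KRT7 (-0.871 to 0.521), KRT81 (-1.995 to 2.899), SLC7A11 (-0.568 to 0.972, and -0.252 with the length trend removed) and SLC6A20 (-0.164 to 0.179, and 0.007 without a filter, 0.032 with the stricter one, 0.042 by voom and 0.007 with only the 4 groups). Each has a 95% interval that spans 0 over all libraries.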
